A study of Mus musculus with 7 samples.

Results

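The 37 genes described here build autophagosomes and run the lysosome. They were taken by symbol from a fixed list, and all 37 were found among the 23583 gene entries that both RNA tables share. Autophagy wraps cytoplasm in a double membrane that fuses with the lysosome, where hydrolases digest the content. A kinase complex starts the process, a lipid kinase marks the membrane, and 2 ubiquitin-like conjugation systems attach proteins of the ATG8 family to it, to which cargo receptors bind. Transcription factors TFEB and TFE3 switch on many lysosomal genes, and ATF4, the transcription factor of the integrated stress response, is known to act on some autophagy genes when amino acids are short.

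The cells were primary dermal fibroblasts of female FVB/N mice, kept for 8 days in DMEM/F12 with 10% fetal bovine serum. They were left untreated or given thapsigargin for 3 h. Thapsigargin stops the pump that fills the endoplasmic reticulum with calcium, proteins then misfold there, and its dose is not given in the sources used here. Each condition had 1 RNA library, CEBPB was immunoprecipitated in 1 library of untreated and 1 of treated cells, ATF4 in 1 library of treated cells, and DNA methylation was read in 2 bisulfite libraries of untreated cells that were held as 1 pooled set. CEBPB is a bZIP transcription factor that can pair with ATF4. How many mice gave the cells is not stated. ATF4 in untreated cells and methylation in treated cells were not analysed here.

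With 1 library per condition no difference below has a replicate check and none carries a p-value. RNA levels are FPKM, the fragments of a gene divided by its transcript length and by a measure of library size. Levels can thus be set side by side between genes of different length. The deposited confidence bounds imply 53914231 fragments in genes of the untreated and 78941806 of the treated library. The 37 genes had a median of 3755 implied fragments in the untreated library (520 to 100462) and 5347 in the treated library (332 to 238539). Intervals of ratios follow from these fragments and cover counting error only. The log2 change is that of FPKM + 1, treated over untreated, and a gene is called higher or lower when it reaches FPKM 1 in at least 1 library and changes by 1 or more. The treatment showed in 4 stress genes, Atf4, Cebpb, Ddit3 and Hspa5, all higher, with a median log2 change of 2.88.

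The label of the cells was checked against markers. All 10 fibroblast markers were expressed, at a median FPKM of 325 in the untreated library, and their summed FPKM was 16134 there and 4113 in the treated library. Endothelial markers were expressed in 0 of 5 cases. Macrophage and other leukocyte markers were expressed in 9 of 9 cases, with a summed FPKM of 1246 untreated and 1389 treated. Lyz2, which encodes a lysozyme of macrophages, stood at FPKM 880 and 951 and makes up most of that sum. Copies elsewhere in the genome cover 36% of its transcript windows, so its level is uncertain. Within the macrophage and leukocyte list Cd74 fell from 143 to 5.61, while Cd14 rose from 14.8 to 111 and Fcer1g from 77.6 to 189. Keratinocyte markers were expressed in 5 of 6 cases and summed to 21.3 and 2.08, and melanocyte and Schwann cell markers in 3 of 6 cases and summed to 41.7 and 5.92. Muscle markers were expressed in 4 of 4 cases and summed to 114 and 67.1. Krt1 was listed at 0 in the untreated library, and Tyrp1 and Emcn in the treated one. Macrophages are rich in lysosomes, and the part of these other cells in the values below was not tested. In such bulk samples fewer cells of a type and less RNA per cell cannot be told apart.

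After 3 h of thapsigargin no gene of the 37 was called higher and 8 were called lower. In counts of genes below, rose and fell mean called higher and called lower. The genes that fell were Ulk1, Ulk2, Pik3c3, Atg2a, Wipi1, Atg3, Atg4c and Ctsl. Over all 12207 expressed entries 6.02% were higher and 28.2% lower, beside 0 and 21.6% of the 37 genes. Without the 9 genes touched by copies or overlaps, a setting chosen after seeing the data, 8 of 28 fell, 28.6%. The 28.2% of all entries was not filtered for copies or overlaps, so these 2 shares are not like for like. The 37 genes had a median log2 change of −0.43, against −0.52 over all expressed entries. Single genes ranged from −2.48 for Wipi1 to 0.99 for Atg4d. On the log2 scale 12 genes stood above 0 and 25 below, beside 3339 and 8868 of all expressed entries. The median of all entries thus lay below 0 as well. When it was subtracted from every gene, 3 genes (Atg4d, Tfe3 and Optn) counted as higher and 4 (Ulk2, Pik3c3, Wipi1 and Atg3) as lower. Over all expressed entries 13.3% counted as higher and 12.9% as lower on that scale, and the median of the 37 turned to 0.09.

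**Figure D1:**
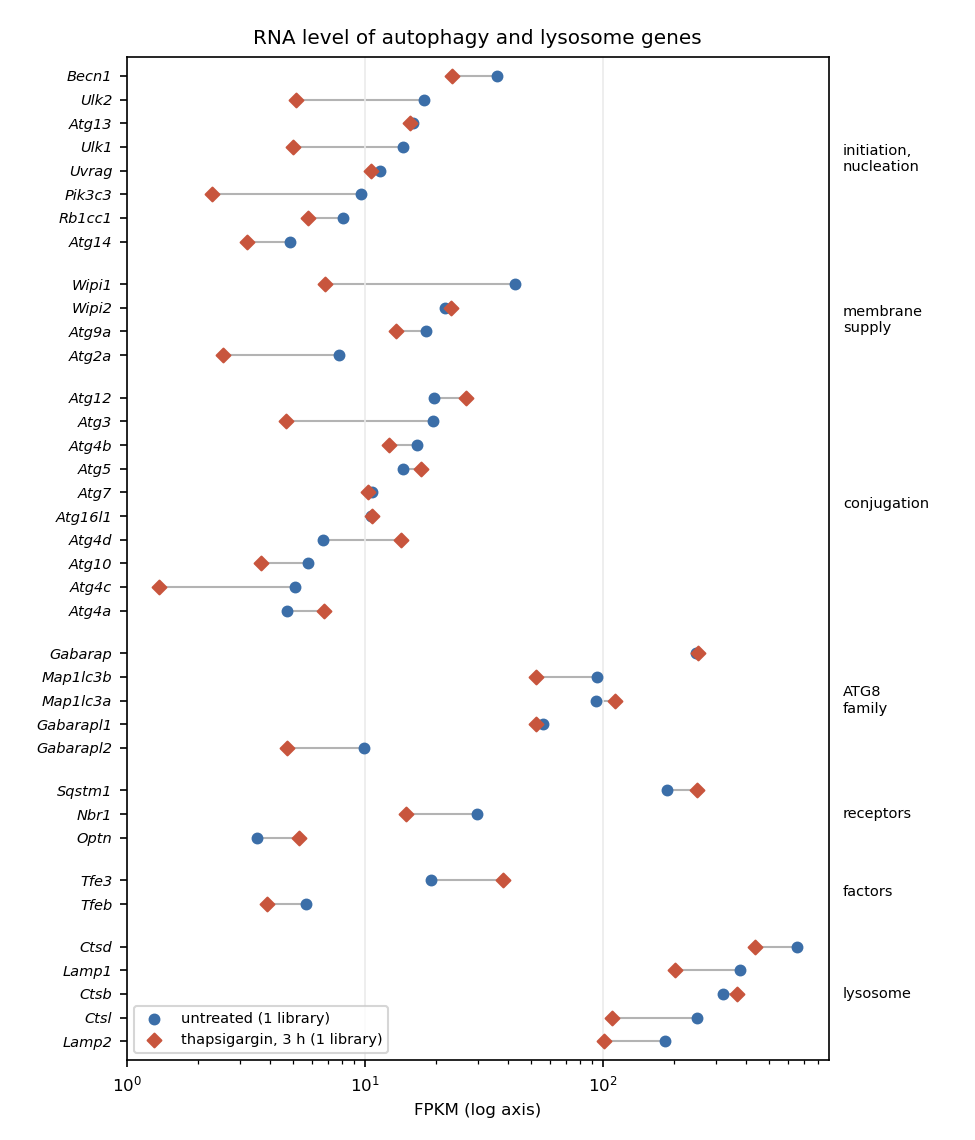
RNA level of each gene in FPKM on a log axis, with a circle for the untreated and a diamond for the treated library (1 library each), grouped by step. Lysosomal genes, Gabarap and Sqstm1 stand highest, and the widest gap is that of Wipi1, from 42.6 to 6.83.

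A second scaling bears on every value. Genes whose transcripts hold many exon junctions stood lower in the treated library: over 8768 entries at FPKM 5 or more in either library, the log2 change had a Spearman rho of −0.419 with the number of junctions per kb, and over the 37 genes the rho was −0.350 and Pearson's r −0.384. Both are descriptions across genes of the same 2 libraries. In 4 bins of equal size, from few to many junctions, the median log2 change of these entries was −0.13, −0.37, −0.64 and −1.18. Of the 37 genes, 5, 9, 14 and 9 lie in these bins, with median log2 changes of −0.10, 0.08, −0.49 and −1.31. What gives this relation was not tested. Each log2 change was therefore also set against the median of entries with like junction density, a value called the adjusted change below. On that scale 11.9% of 11786 entries were higher and 10.1% lower. Of the 37 genes, 6 were then higher (Atg4a, Atg4d, Atg7, Atg16l1, Optn and Tfe3) and 2 lower (Wipi1 and Atg3), and their median was 0.12 against 0.02 over all. Without the 9 genes touched by copies or overlaps, a setting chosen after seeing the data, 3 of 28 were higher and 2 lower. The median of these 28 was 0.08. For 9 genes the sign of the change turned, which left 21 above 0 and 15 below.

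**Figure D2:**
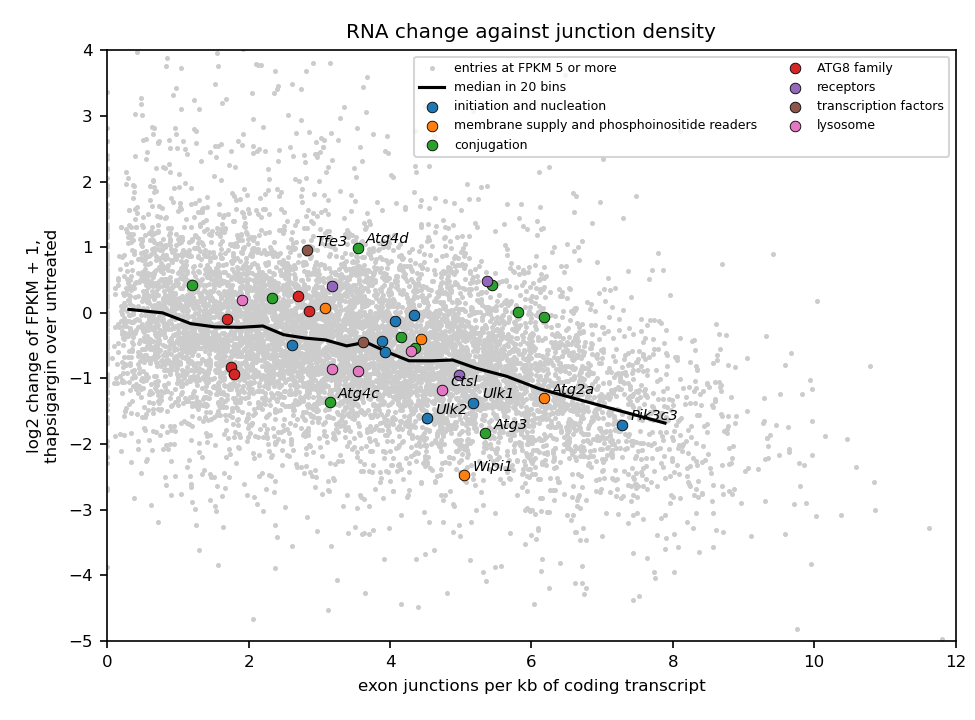
Log2 change of FPKM + 1 (treated over untreated) against exon junctions per kb of coding transcript, with grey points for entries at FPKM 5 or more, a line for their median in 20 bins and coloured points for the 37 genes. The line falls from left to right, and Pik3c3 and Atg2a lie near it while Wipi1 and Atg3 lie more than 1 below it.

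**Figure D3:**
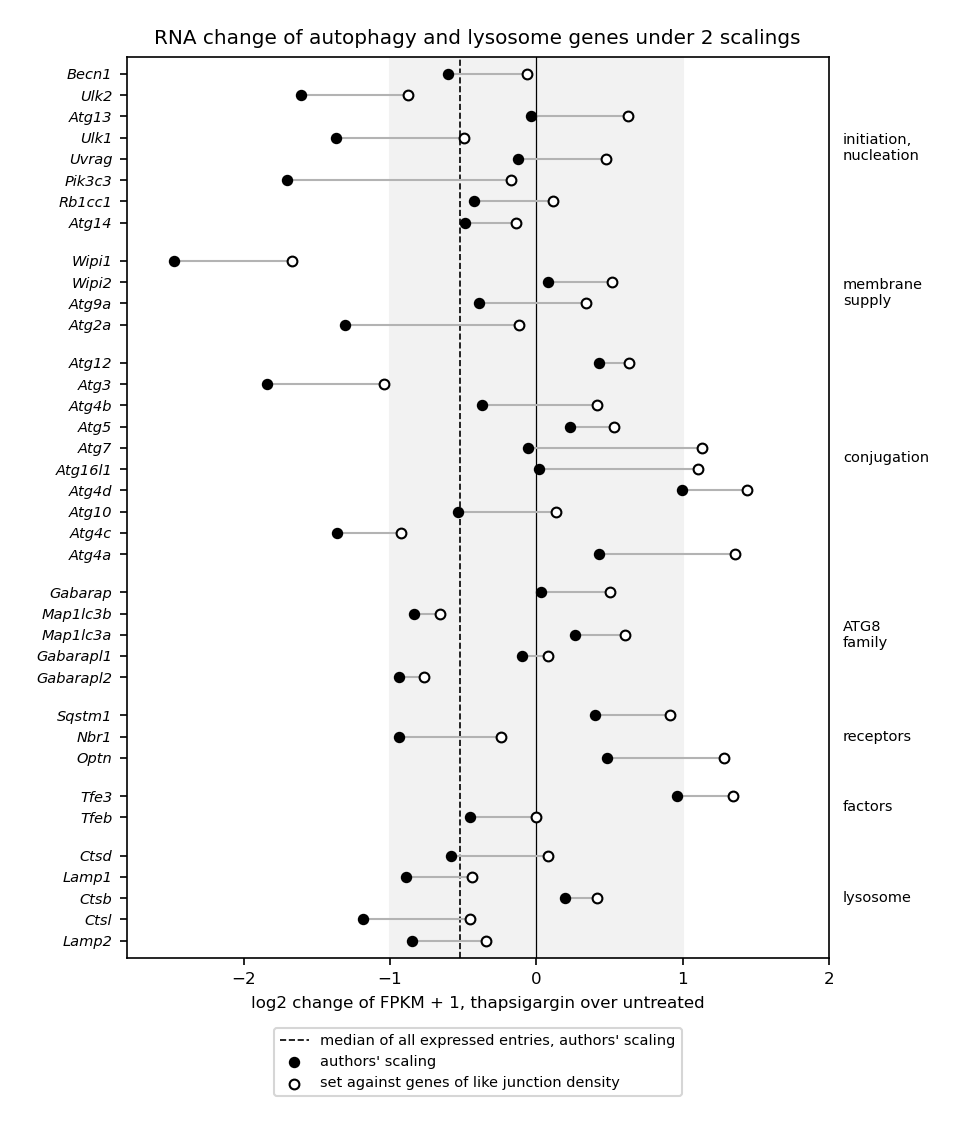
Log2 change of each gene as deposited (filled) and after setting it against genes of like junction density (open), by step, with the dashed line at the median of all expressed entries and grey marking changes under 1. Wipi1 and Atg3 stay below −1 on both scales, and 6 genes pass 1 on the adjusted scale only.

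Initiation genes were lower or near level. Of 8 genes of the starting complexes 3 fell and none rose, beside 28.2% and 6.02% of all expressed entries. Their median log2 change was −0.54 and the adjusted median −0.10, against −0.52 and 0.02 over all. Ulk1 (5:111213508-111239100), the kinase that starts autophagy, stood at FPKM 14.5 untreated and 4.99 treated, an untreated to treated ratio of 2.90 (95% interval 2.78 to 3.03). Ulk2 (11:61589100-61668594), its close relative, stood at 17.7 and 5.13, a ratio of 3.45 (3.32 to 3.59). Their log2 changes of −1.37 and −1.61 became −0.49 and −0.88 after adjustment, so neither passes 1 there. Pik3c3, the catalytic subunit of the lipid kinase VPS34, stood at 9.67 and 2.28, a ratio of 4.25 (3.93 to 4.59). It has 7.28 junctions per kb, the most of the 37 genes, and its log2 change of −1.70 became −0.18 after adjustment. The other members of both complexes stayed within the limit of 1. Rb1cc1, which encodes the scaffold FIP200 of the ULK complex, stood at 8.14 and 5.80, a log2 change of −0.43. Atg13, a regulatory subunit of the ULK complex, stood at 16.0 and 15.6, a log2 change of −0.04. Of the subunits of the lipid kinase complexes, Atg14 stood at 4.86 and 3.19 (log2 change −0.48) and Uvrag at 11.6 and 10.6 (log2 change −0.12). Copies elsewhere in the genome cover 27.8% of the transcript windows of Rb1cc1, so its level is uncertain.

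Becn1 (11:101149581-101163581), the scaffold of both lipid kinase complexes, stood at FPKM 36.1 and 23.4, a log2 change of −0.60 and −0.06 after adjustment. Exons of Cntd1 on the other strand overlap 43.9% of its exonic bases, and whether the counting used strand is not given in the sources used here. Becn1 also carries the highest ranked ATF4 peak of the 37 genes. This peak lies across its start (11:101163436-101163721) with a score of 16.6, rank 266 of 10109 in the ATF4 list. A CEBPB peak of untreated cells at rank 6591 of 7317 overlaps it, while no CEBPB peak of treated cells does. A pair of 8-base words that bZIP factors are known to bind stands there, shown because no peak window at another of the 37 genes holds both. The build is mm9, the sequences run 5′ to 3′ on the gene's strand, capitals mark the words, and untranslated sequence past 30 bases was left out.
Becn1 upstream, chr11:101163601-101163728, minus strand: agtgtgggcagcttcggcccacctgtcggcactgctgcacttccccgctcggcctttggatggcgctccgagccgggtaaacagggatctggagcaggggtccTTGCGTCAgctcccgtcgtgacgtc
Becn1 start, chr11:101163589-101163618, minus strand: agctcccgtcgTGACGTCActtctggtcct
The first word, TTGCGTCA, is TGACGCAA read on the other strand and begins 44 bases before the 5′ end of the locus. It joins a CRE part to a C/EBP part, as pairs of ATF4 and a C/EBP factor are known to bind. The second, TGACGTCA, is the palindromic CRE and begins 26 bases before the 5′ end. Within 300-base windows around peak centres, and on either strand, TGACGCAA stood in 0.693% of all ATF4 windows, 1.97% of CEBPB windows of untreated and 1.66% of treated cells. TGACGTCA stood in 1.77%, 0.396% and 0.535% of them. The words do not overlap.

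Membrane supply held the widest fall. Wipi1 (11:109434835-109472703), which encodes a reader of the lipid mark on the growing membrane, stood at FPKM 42.6 and 6.83, an untreated to treated ratio of 6.23 (95% interval 5.89 to 6.60). Its log2 change of −2.48 was −1.67 after adjustment, the lowest of the 37 genes on either scale. Wipi2 (5:143105538-143145324), the related reader that brings in ATG16L1, stood at 21.8 and 23.1, a log2 change of 0.08. The pair thus went apart: before treatment Wipi1 stood above Wipi2, and afterwards below it. Atg2a, which carries lipid to the new membrane, stood at 7.76 and 2.54, a ratio of 3.05 (2.89 to 3.22). Its log2 change of −1.31 was −0.12 after adjustment. Atg9a, the transmembrane protein of the vesicles that seed the membrane, stood at 18.1 and 13.5, a log2 change of −0.39. Wipi2 held the next ranked ATF4 peak at a start, rank 298, and Wipi1 had one in an intron just past its start, at rank 8863.

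Conjugation genes split. Of 10 genes 2 fell and none rose, beside 28.2% and 6.02% of all expressed entries, with a median log2 change of −0.02 beside −0.52. After adjustment 4 were higher and 1 lower, beside 11.9% and 10.1%, with a median of 0.58 beside 0.02. Of these 4, Atg4a, Atg4d and Atg7 are touched by copies or overlaps, and Atg16l1 is not. Atg3 (16:45158942-45188651), the E2-like enzyme that passes ATG8 proteins to lipid, stood at FPKM 19.3 and 4.68, an untreated to treated ratio of 4.13 (95% interval 3.85 to 4.42). Its log2 change was −1.84 and −1.04 after adjustment, a fall on both scales. Atg7, the E1-like enzyme that acts before it, stood at 10.8 and 10.3, a log2 change of −0.06 and 1.13 after adjustment. Copies cover 15.9% of the windows of Atg7. Atg10, the E2-like enzyme for ATG12, stood at 5.76 and 3.68, a log2 change of −0.53. The parts of the ATG12 complex were level or above: Atg12 stood at 19.5 and 26.6 (log2 change 0.43), Atg5 at 14.5 and 17.2 (log2 change 0.23) and Atg16l1 at 10.6 and 10.8 (log2 change 0.02). On the adjusted scale these were 0.64, 0.53 and 1.11, so that Atg16l1 counts as higher there only.

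The 4 ATG4 proteases, which cut ATG8 proteins before and after they are joined to lipid, went in different directions. Atg4c (4:98860625-98926478) stood at FPKM 5.08 and 1.36, an untreated to treated ratio of 3.73 (95% interval 3.25 to 4.28), a log2 change of −1.36 and −0.92 after adjustment. It had the fewest fragments of the 37 genes, 520 and 332. Atg4d (9:21069743-21078812) stood at 6.65 and 14.2, a treated to untreated ratio of 2.14 (1.995 to 2.29). Its log2 change of 0.99 misses the limit of 1 by the added pseudocount, and it was 1.44 after adjustment. Exons of Kri1 on the other strand overlap 31.1% of its exonic bases. Atg4a stood at 4.73 and 6.71 (log2 change 0.43), but copies cover 93.02% of its windows. Atg4b, the most abundant of the 4 in the untreated library, stood at 16.6 and 12.6 (log2 change −0.37).

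Sequences near conjugation genes are shown where a peak holds one of the searched words or where a start holds the E-box word TCACGTGA, which TFEB and TFE3 are known to bind. Atg16l1 (1:89652586-89689003) is the gene where a CEBPB peak of treated cells (1:89652430-89652584, rank 3357 of 7861) overlaps an ATF4 peak (1:89652402-89652940, rank 918). Atg10 holds in an intron the highest ranked CEBPB peak of the 37 genes, listed in untreated cells (13:91305696-91306353, rank 181 of 7317) and in treated cells (13:91305976-91306171, rank 402). Atg5 holds an intronic CEBPB peak listed in untreated cells (10:44045408-44045947, rank 3823). The first 3 lines are mm9 and the fourth is the 250 bases before a start of Atg3 in RefSeq on GRCm38.p6, all 5′ to 3′ with the word in capitals.
Atg16l1 start, chr1:89652491-89652520, plus strand: cggcttcaaggTTGCGTCAtttgagagcgt
Atg10 intron, chr13:91305985-91306084, minus strand: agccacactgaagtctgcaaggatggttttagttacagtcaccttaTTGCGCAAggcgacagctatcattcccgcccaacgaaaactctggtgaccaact
Atg5 intron, chr10:44045642-44045741, plus strand: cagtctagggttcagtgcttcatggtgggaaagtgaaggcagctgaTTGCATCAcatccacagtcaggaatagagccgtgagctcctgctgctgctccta
Atg3 promoter, upstream part of chr16:45158579-45158878, plus strand: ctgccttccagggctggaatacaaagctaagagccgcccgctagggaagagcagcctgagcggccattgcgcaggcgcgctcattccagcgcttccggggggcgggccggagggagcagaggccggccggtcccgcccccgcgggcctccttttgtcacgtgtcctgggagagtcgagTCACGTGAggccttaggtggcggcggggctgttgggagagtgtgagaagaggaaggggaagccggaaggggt
The word of Atg16l1 is again TTGCGTCA, 84 bases before the 5′ end. That of Atg10 is the C/EBP palindrome TTGCGCAA, which stood in 4.10% of CEBPB windows of untreated cells, 2.38% of treated cells and 0.198% of ATF4 windows. In Atg5 the word TTGCATCA is TGATGCAA on the other strand, which stood in 7.13%, 8.09% and 0.703% of these windows. Among RefSeq promoters of 27025 genes, 300 bases from 250 before to 50 after the start, TCACGTGA stood in 1.12%. Promoters of 30 of the 37 genes were matched, all but Atg12, Atg16l1, Becn1, Ctsb, Map1lc3a, Pik3c3 and Rb1cc1, and Atg3 and Ctsd held it. The promoters of these 30 genes held a median of 19 CG dinucleotides, beside 7 over all 27025 genes. The word itself holds a CG, so the 2 sets are not like for like. Atg5 held TGACGTCA, which stood in 2.03% of all promoters, and TGATGCAA, CGATGCAA, TGACGCAA and TTGCGCAA stood in 0 of these 30, which leave out Becn1 and Atg16l1 shown with TGACGCAA.

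Genes of the ATG8 family, whose proteins coat the membrane and bind receptors, all stayed within the limit of 1, as did 8026 of 12207 expressed entries. Their median log2 change was −0.10 and 0.08 after adjustment, against −0.52 and 0.02 over all expressed entries. Gabarap was the most abundant, at FPKM 246 and 252, a log2 change of 0.03. Map1lc3a (2:155102100-155103809), encoding LC3A, stood at 93.6 and 112, a log2 change of 0.26 and 0.61 after adjustment. Map1lc3b (8:124114368-124121947), encoding LC3B, the common marker of autophagosomes, stood at 94.2 and 52.5, a log2 change of −0.83 and −0.66 after adjustment. Level before treatment, the 2 LC3 genes differed 3 h later, with LC3A above LC3B. Gabarapl1 stood at 56.2 and 52.5 (log2 change −0.10) and Gabarapl2 at 9.91 and 4.70 (log2 change −0.94). Copies cover 57.6% of the windows of Map1lc3b and 50% of those of Gabarapl2, so these values are uncertain.

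Both LC3 genes had peaks that hold a word. At the start of Map1lc3a an ATF4 peak (2:155102189-155102545, rank 1410) covers 2 copies of TGACGTCA in 1 window, and 6.6 kb before Map1lc3b a CEBPB peak was listed in untreated (8:124107640-124108070, rank 4002) and treated cells (8:124107684-124107855, rank 2355). An ATF4 peak also lies at the start of Map1lc3b, at rank 2391. The sequences are mm9, with the words in capitals, and untranslated sequence was left out.
Map1lc3a start, chr2:155102343-155102517, plus strand: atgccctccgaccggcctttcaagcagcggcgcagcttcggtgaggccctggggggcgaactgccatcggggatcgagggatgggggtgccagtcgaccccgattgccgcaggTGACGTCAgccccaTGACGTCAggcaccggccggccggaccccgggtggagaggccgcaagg
Map1lc3b upstream, chr8:124107727-124107826, plus strand: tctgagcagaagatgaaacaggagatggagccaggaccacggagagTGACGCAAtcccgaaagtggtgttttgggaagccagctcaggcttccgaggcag
In Map1lc3b the word is TGACGCAA, and the mean CpG methylation of this CEBPB peak in untreated cells was 35.9% over 16 cytosines. A further CEBPB peak 5.0 kb before Map1lc3b was also listed in both states, at ranks 564 and 4186, with a methylation of 0.25% over 56 cytosines in the untreated peak.

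Cargo receptors and the 2 transcription factors stayed within the limit of 1, as did 8026 of 12207 expressed entries. Sqstm1 (11:50013654-50024292), which encodes p62, the receptor for ubiquitin-tagged cargo, stood at FPKM 187 and 248, a treated to untreated ratio of 1.33 (95% interval 1.31 to 1.35). Its log2 change was 0.40 and 0.91 after adjustment, and another gene on the other strand overlaps 17.3% of its exonic bases. Nbr1 (11:101413421-101443265), a related receptor, stood at 29.7 and 14.97, a log2 change of −0.94 and −0.24 after adjustment. Optn, the receptor optineurin, stood at 3.51 and 5.31, a log2 change of 0.48 and 1.28 after adjustment. So p62 and optineurin lie above 0 and Nbr1 below it on both scales. Tfe3 (X:7339787-7352328) stood at 19.01 and 38.0, a treated to untreated ratio of 1.998 (95% interval 1.93 to 2.07), with a log2 change of 0.96 and 1.34 after adjustment. Tfeb stood at 5.66 and 3.87, a log2 change of −0.45. It was itself the median of its bin of junction density, so that its adjusted change is 0.00.

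Lysosomal genes were among the most abundant of the 37, and 4 of 5 lay below 0, as did 8868 of all 12207 expressed entries. Of 5 genes 1 fell and none rose, beside 28.2% and 6.02% over all. Their median log2 change was −0.85 and −0.34 after adjustment, against −0.52 and 0.02 over all. Ctsl (13:64464522-64471614), the cysteine protease cathepsin L, stood at FPKM 249 and 109, an untreated to treated ratio of 2.28 (95% interval 2.25 to 2.32), a log2 change of −1.18 and −0.45 after adjustment. Lamp1 (8:13159135-13175338), a glycoprotein of the lysosomal membrane, stood at 376 and 202, a log2 change of −0.89. Lamp2 (X:35758241-35809632), the related membrane protein needed for fusion with autophagosomes, stood at 182 and 101, a log2 change of −0.85. The other cathepsins stayed within the limit of 1. Ctsb (14:63741299-63764760) stood at 319 and 366, a log2 change of 0.20, with 16.2% of its exonic bases overlapped by Fdft1. Ctsd (7:149561821-149573775), the aspartic protease, was the most abundant of all 37 genes at 654 and 435, a log2 change of −0.59 and 0.08 after adjustment. The start of Ctsd in RefSeq holds the E-box word, shown in capitals in the 250 bases before the start on GRCm38.p6.
Ctsd promoter, upstream part of chr7:142387778-142388077, minus strand: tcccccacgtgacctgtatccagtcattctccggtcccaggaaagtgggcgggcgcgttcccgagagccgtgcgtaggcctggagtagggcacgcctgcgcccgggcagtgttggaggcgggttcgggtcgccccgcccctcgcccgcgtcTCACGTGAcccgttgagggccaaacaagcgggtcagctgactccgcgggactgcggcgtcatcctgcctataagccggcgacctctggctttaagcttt
In Atg3 the same word begins 72 bases before the start and in Ctsd 99 bases before it, and no peak of TFEB or TFE3 was measured.

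The wider lists were taken whole, and each is read beside the shares over all entries given above. Of 24 expressed other autophagy genes 6 fell and none rose, with a median log2 change of −0.60 (adjusted −0.15). Tecpr1, which tethers autophagosomes to lysosomes, stood at FPKM 9.22 and 2.12, and Wdr45, a further reader of the lipid mark, at 18.1 and 5.40. At the upper end of that list, Atg101 of the ULK complex stood at 26.1 and 36.2, and Tmem41b, a membrane protein for which copies cover 50.7% of the windows, at 7.44 and 14.5. The lysosomal hydrolases and their activators were lower as a list: of 35 expressed genes 18 fell and none rose, all 35 lay below 0, as did 8868 of all 12207 expressed entries, and the median log2 change was −1.06. After adjustment 6 were lower and 0 higher, 28 lay below 0 and 7 above, and the median was −0.52. Man2b1, the lysosomal alpha-mannosidase, stood at 32.6 and 4.74, an untreated to treated ratio of 6.86 (95% interval 6.58 to 7.16). Lipa, the acid lipase, stood nearly level at 60.5 and 59.0, and Arsb, arylsulfatase B, at 19.9 and 16.7.

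Of 16 genes of the lysosomal membrane, cholesterol export and delivery 8 fell and none rose, with a median log2 change of −1.07 (adjusted −0.20, with 3 lower). Scarb2, the membrane protein LIMP-2 that carries glucocerebrosidase to lysosomes, stood at FPKM 68.1 and 7.57, an untreated to treated ratio of 8.99 (95% interval 8.58 to 9.43). Lamtor2, a subunit of the Ragulator complex on the lysosome, stood at 101 and 14.6. Its partner Lamtor1 stood at 57.4 and 68.8 and the mannose 6-phosphate receptor gene M6pr at 50.8 and 71.8, with copies over 59.1% and 57.1% of their windows. Of 16 genes of the vacuolar ATPase, the proton pump that acidifies the lysosome, 5 fell and none rose, with a median of −0.74 (adjusted 0.16, with 2 lower). Atp6v0c, a subunit of the membrane ring, stood at 148 and 13.6, but copies cover 90.9% of its windows. Atp6v0a2 stood at 19.2 and 6.06 without copies, and Atp6v1f at 117 and 160 and Atp6v1g1 at 115 and 155 with copies over 61.5% and 76.2%.

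A list of 12 of the 37 genes, known from amino acid starved mouse fibroblasts as targets of ATF4 or its partner CHOP, had a median log2 change of −0.30 (adjusted 0.32). Of these 1 fell, Atg3, and none rose, beside 28.2% lower and 6.02% higher over all expressed entries. After adjustment Atg7 and Atg16l1 counted as higher and Atg3 as lower, beside 11.9% and 10.1%. Sqstm1, Nbr1 and Atg7 of this list had no ATF4 peak within 10 kb. The others, Atg16l1, Map1lc3b, Atg12, Atg3, Becn1, Gabarapl2, Atg10, Gabarap and Atg5, had one, as did 61.7% of expressed entries.

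Peaks near the 37 genes were common. An ATF4 peak lay within 10 kb of 23 loci, 62.2%, beside 61.7% of 12154 expressed entries placed on the genome, so the 37 genes sit at the background. A CEBPB peak of untreated cells lay within 10 kb of 13 loci, 35.1% beside 24.2%, and one of treated cells of 12 loci, 32.4% beside 22.6%. Within 50 kb the share for untreated cells lay below that of all entries, at 40.5% beside 44.1%. The share for treated cells lay above it there, at 59.5% beside 43.6%. With the upper scores only, the CEBPB shares within 10 kb were 27.0% beside 14.7% for untreated and 29.7% beside 13.8% for treated cells. Within 1 kb of the locus the counts were 21 for ATF4 (53.2% of all entries), 8 for CEBPB in untreated (17.9%) and 10 in treated cells (16.3%). Scores of the lists are on different scales, so peaks were ranked within a list only. A peak centre lay within 1 kb of the 5′ end of 19 of the 37 genes for ATF4, beside 47.4% of 12008 expressed entries with a strand, of 1 for CEBPB in untreated cells, beside 4.41%, and of 2 in treated cells, beside 3.74%.

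**Figure D4:**
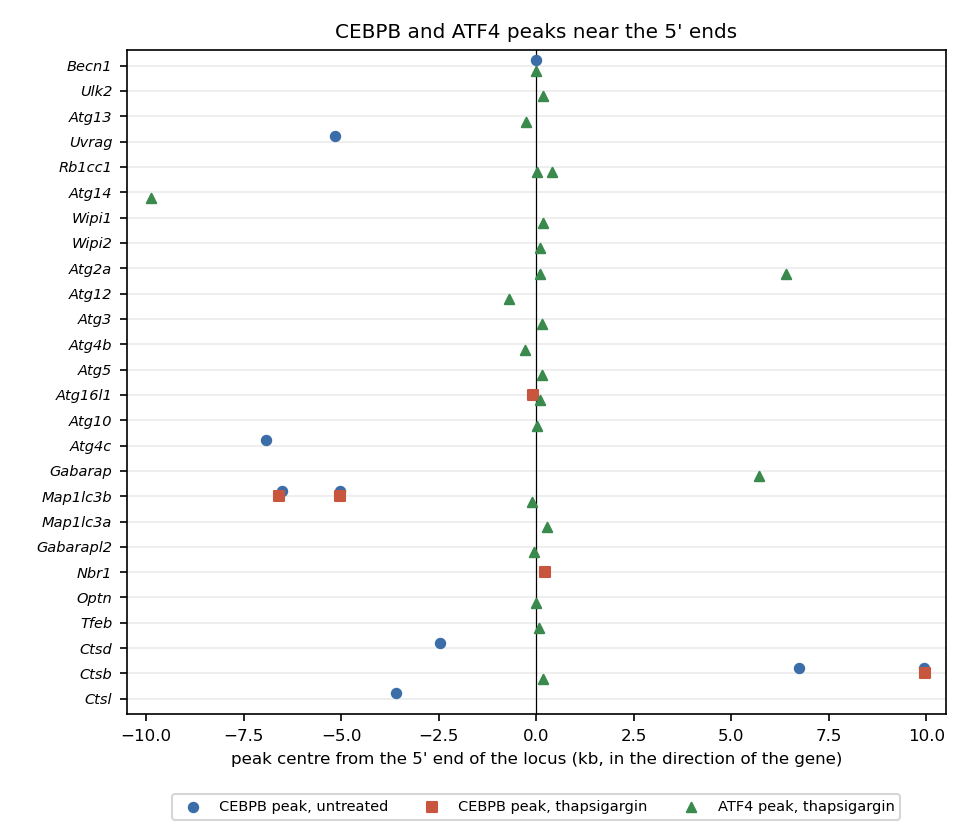
Peak centres within 10 kb of the 5′ end of the locus, in kb along the gene, for the genes that have one, with circles for CEBPB untreated, squares for CEBPB treated and triangles for ATF4 treated. ATF4 centres gather at the 5′ end of 19 genes, while CEBPB centres lie there only at Becn1, Atg16l1 and Nbr1.

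Nbr1, like Atg16l1, had a CEBPB peak listed at its start in treated cells only (11:101413513-101413796, rank 1301 of 7861), but no ATF4 peak within 10 kb. A peak listed in 1 state only is no test of a difference in binding, since the lists come from 1 library each. CEBPB peaks in both states lay in the intron of Atg10 shown above, past the 3′ end of Atg10, just past the 3′ end of Becn1, in an intron and past the 3′ end of Ctsb, at 2 places before Map1lc3b and past the 3′ end of Nbr1. The peak in the intron of Ctsb ranked 246 in untreated and 2724 in treated cells. Genes with an ATF4 peak within 10 kb had a median log2 change of −0.37 (23 genes, 4 lower) and those without one −0.72 (14 genes, 4 lower). Over all expressed entries the medians were −0.49 and −0.57, with 1979 of 7498 and 1427 of 4656 entries lower. With 1 library a condition these medians describe the genes and carry no test. Of the 8 genes that fell, Ulk2, Atg2a, Wipi1 and Atg3 had an ATF4 peak at the start, and Ulk1, Pik3c3, Atg4c and Ctsl had none within 10 kb. Over all expressed entries 47.4% had an ATF4 peak centre within 1 kb of the 5′ end and 61.7% a peak within 10 kb.

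CpG methylation of untreated cells was low at the 5′ ends and high at the 3′ ends. The mean percent within 1 kb of the 5′ end had a median of 4.40% over 36 genes, beside 5.49% over 11997 expressed entries, and 31 genes lay under 10%, beside 69.0% of those entries. No CpG was listed at the 5′ end of Atg7. The highest 5′ values were those of the X-linked genes, 31.8% for Tfe3, 31.2% for Atg4a and 23.4% for Lamp2. These 3 lie beside a median of 26.8% over 403 expressed X-linked entries (quartiles 23.5% and 31.4%) and of 5.24% over 11594 autosomal ones, in cells of female mice. Autosomal genes reached at most 16.0% at Atg14 and 12.6% at Optn. At the 3′ end the median was 78.5%, beside 79.8%. Atg9a, Gabarap and Nbr1 stood apart there at 11.4%, 21.9% and 24.0%. Within 250 bases of the 3′ end Atg9a stood at 32.25%, Gabarap at 70.1% and Nbr1 at 8%, so the low value of Gabarap depends on the window. The reads behind each percent are unknown.

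**Figure D5:**
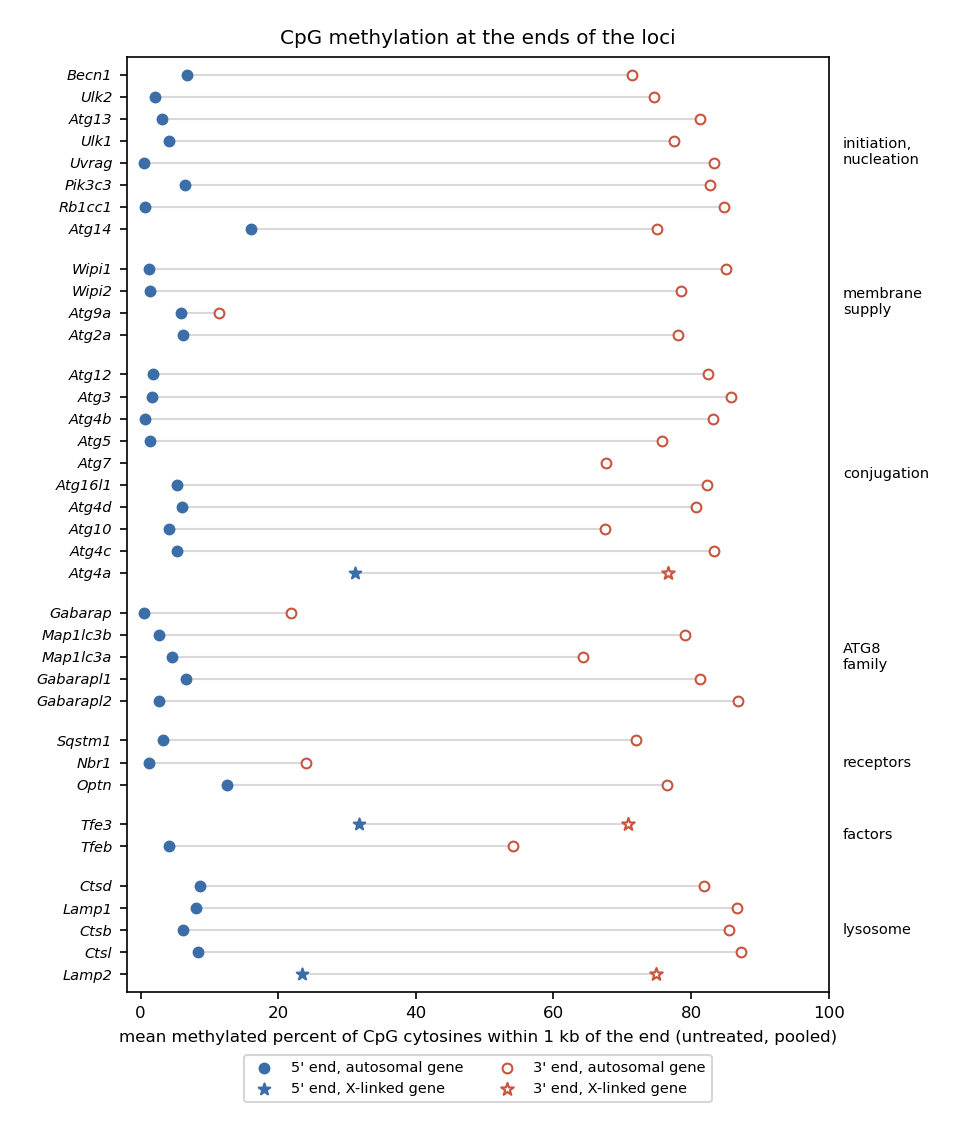
Mean methylated percent of CpG cytosines within 1 kb of the 5′ end (filled) and the 3′ end (open) of each gene in untreated cells, pooled by the authors, with stars for X-linked genes. The 5′ ends lie under 17% but for the 3 X-linked genes, and the 3′ ends lie over 50% but for Atg9a, Gabarap and Nbr1.

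The ATF4 peaks at starts lay on unmethylated CpGs. Mean methylation in untreated cells was 0.17% in the ATF4 peak of Becn1, 0.046% in that of Wipi2, 0.087% in that of Atg16l1 and 0.90% in that of Map1lc3b. The median over all ATF4 peaks was 0.17%. Away from starts the values differed: the ATF4 peak 6.4 kb inside Atg2a had 89.6% over 18 cytosines, and that 5.7 kb from the 5′ end of Gabarap had 0% over 40 cytosines. The intronic CEBPB peak of Atg10 had 50.4% over 29 cytosines in its untreated extent, beside medians of 39.0% and 60.3% over all CEBPB peaks of untreated and treated cells.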

How the data were processed

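RNA tables held FPKM per gene entry with confidence bounds, as deposited by the authors; CASAVA 1.8.2 and Bowtie are named for them, per the submitters' processing notes. Peak lists held a position and a score per peak, deposited by the authors and listed per library, after CASAVA 1.7, BWA and SAMtools. Methylation was a percent per CpG cytosine, pooled by the authors over both bisulfite libraries without coverage, after CASAVA 1.8 and Novoalign. The build was mm9. Not given in the sources used here are the program that made the FPKM, the peak caller and its control.

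Fragments were read from the bounds, taken to lie 2 standard errors from the value; among entries with 3 to 200 of them, 74.1% of 4194 untreated and 80.7% of 4277 treated ones came out whole within 0.05. Junction density came from GENCODE vM1, and the adjusted change subtracted the median of 1 of 50 bins of entries at FPKM 5 or more. Copies are transcript windows of 100 bases, every 50 bases, with at most 3 mismatches elsewhere (minimap2 2.31-r1302). Of 39547384 listed cytosines 83035 marked heterozygous were left out and 38537328 were used. Promoters came from RefSeq (GRCm38.p6). Python 3.11.15 with pandas 2.3.3 was used, and the ratio intervals and the adjustment were tested on simulated data.

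The genes, lists and words were chosen with earlier results of these data known. All 37 genes are named, with the 2 largest rises and falls of each wider list, the most abundant macrophage marker and 4 treatment genes, except 1 gene that this rule takes and that is not reported here; other markers were named after their values were seen. The sequences are those of member peaks or promoters that hold a word, also chosen after the values were seen.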

Additional observations from a re-analysis of the deposited data

How the results depend on the processing

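The 8 falls and 0 rises among the 37 genes depend on the scale. The shares over all expressed entries moved with it as well. A pseudocount of 0.1 gave 1 rise and 9 falls, beside 7.64% and 35.4% of all expressed entries. A pseudocount of 5 gave 5 falls, beside 14.2%, and a median log2 change of −0.28, beside −0.30. Subtracting the median of all entries gave 3 rises and 4 falls, beside 13.3% and 12.9%, and a median of 0.093. Setting genes against those of like junction density gave 6 rises and 2 falls, beside 11.9% and 10.1%, and a median of 0.12. A fold of 1.5 gave 2 rises and 15 falls, beside 11.4% and 47.0%. No minimum and entries of good status kept all 3 values, though with no minimum 14.6% of all entries count as lower; a minimum of FPKM 5 kept both counts over 36 genes, with a median of −0.41. Leaving out 9 genes with copies or overlaps of 10% or more, an alternative chosen after seeing the data, gave 0 rises, 8 falls and a median of −0.47 over 28 genes. Other pseudocounts turned no sign among the 37 genes, and each of the other scalings turned 9.

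Within 1 kb of the locus 8 genes had a CEBPB peak of untreated cells, 21.6% beside 17.9% of all expressed entries. Within 50 kb 22 had a CEBPB peak of treated cells, 59.5% beside 43.6%. At that distance 15 had one of untreated cells (40.5% beside 44.1%) and 27 an ATF4 peak (73.0% beside 81.2%). With the upper scores only, 15 had an ATF4 peak, 40.5% beside 39.7%. For CEBPB the counts were then 10 in untreated (27.0% beside 14.7%) and 11 in treated cells (29.7% beside 13.8%). The median methylation at the 5′ end was 0.121% within 250 bases and 13.7% within 2 kb, and at the 3′ end 83.6% and 79.6%. The cause of these shifts was not tested beyond the settings themselves.

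No paired analysis was possible because each condition has 1 RNA library and 1 library of each immunoprecipitation, so that leaving 1 out leaves no comparison. Counting error is small here, with a median of 0.059 (log2) on either side of a change, but variation between cultures is unknown, and methylation was used without a minimum of reads.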
